A study of Homo sapiens with 6 samples.

Results

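Zinc, iron, copper and magnesium carriers, the metallothioneins and the proteins that store and sense iron were followed. The values come from a comparison deposited for IGR37, a human melanoma cell line. Every row of the comparison table whose symbol belongs to the SLC30A, SLC39A, SLC11A, SLC31A, SLC40A or SLC41A carriers, to MT1 or MT2A, or is MTF1, FTH1, FTL, TFRC, TF, IREB2, ACO1 or CP was taken, which gave 34 of 12558 genes: 6 zinc exporters, 11 zinc importers, 4 metallothioneins with their activator MTF1, 7 iron genes, 2 copper carriers and 3 magnesium carriers. Members of these families that are not named below were not analysed here. All cells carried a piggyBac-integrated CTNNB1 transgene, selected with G418 at 1 mg/ml, that encodes beta-catenin with an N-terminal nuclear localisation signal from SV40 large T antigen and is switched on by doxycycline. By the labels, 3 libraries came from cells with no doxycycline and 3 from cells given doxycycline at 20 ng/ml for 24 h. Neither a separate line without the transgene nor doxycycline in such cells was part of the labelled groups, and the labels do not say whether the line is 1 clone or whether libraries of the same group came from different cultures. The p-values then cover only how far these libraries scatter, which may be technical.

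Free zinc, iron and copper are kept scarce in the cytosol. SLC39A (ZIP) carriers move zinc into the cytosol and SLC30A (ZnT) carriers move it out, to the outside or into organelles, while metallothioneins are small cysteine-rich proteins that bind zinc and copper. When zinc is plentiful the zinc-finger factor MTF1 binds metal response elements and switches on metallothionein genes and SLC30A1. Iron enters on transferrin through the transferrin receptor, is released into the cytosol by SLC11A2 and is stored in ferritin, and the iron regulatory proteins ACO1 and IREB2 bind hairpins called iron-responsive elements in these mRNAs when iron is short. Pigment cells also need copper, which tyrosinase holds at its active site.

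The values come from the authors' deposited table, which gives 1 fold change, 1 average level and 1 edgeR F test per gene. Its header names neither the groups nor their order, so "higher" stands for a positive sign there and "lower" for a negative sign, and that the table holds the labelled comparison is taken from the series and is not shown by the file. CTNNB1, the gene that the transgene carries, was 3.89-fold higher by the authors' deposited table (edgeR FDR 1.24e-08). This value does not show which group is the plus side. Whether reads of the transgene were counted as CTNNB1 is not given in the sources used here. No value per library is in the deposited table, so replicate values, their SD and the depth cannot be shown. In their place each log2 fold change is given with the standard error (SE) that its F implies, or with a 95% interval from that SE, and with the level on each side in CPM (counts scaled to a fixed library total) that the average and the fold imply when both groups weigh the same. Summed over all rows, the averages came to 1.00646e+06, slightly above the total that CPM is scaled to. Implied levels of a few CPM or less are therefore approximate. Library preparation captured transcripts at their 3' ends, so CPM does not grow with transcript length and is compared between genes as it stands.

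A large share of all genes differed. By an edgeR FDR under 0.05 in the authors' deposited table, 50.9% of the 12558 genes passed, 24.5% higher and 26.4% lower, and the median log2 fold change was -0.01. The 59 spike-in RNAs of the authors' deposited table had a median log2 fold change of 0.57, and values centred on it were 11.3% higher and 52.3% lower among all genes. Melanocyte lineage markers were higher in 8 of 8 cases (summed implied level 7665 CPM on the plus side and 116 CPM on the minus side). Of 9 fibroblast markers, 6 were measured, of which 5 were lower and LUM was higher (16.6 CPM on the plus side and 412 CPM on the minus side). Of 8 epithelial markers 5 were measured, 4 lower and 1 higher, 3 of the lower ones with no reads in 1 group. The lineage markers of the labelled cell type thus stand on the plus side and are low on the minus side, and whether this difference, or that in the metal genes, comes from the induction was not tested. Whether both sides are the labelled IGR37 cells was not tested either. In bulk RNA, fewer cells of a type and less RNA per cell cannot be told apart. Of 10 macrophage and blood markers, CD68 alone was measured.

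Among the metal genes 19 of 34 passed an edgeR FDR of 0.05 (55.9%), 11 higher and 8 lower, a share near the 50.9% of all genes. Their median log2 fold change was -0.24, with a range from -6.10 for MT1E to 4.19 for TF in the authors' deposited table. By role, 3 of 4 metallothioneins were lower, 1 of 6 zinc exporters passed, and all 7 iron genes passed, in both directions; no test compared the roles. The plot of fold changes by role shows each gene with its interval. Centred on the spike-ins, 8 of the 34 were higher and 19 lower, beside 11.3% and 52.3% of all genes.

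**Figure D1:**
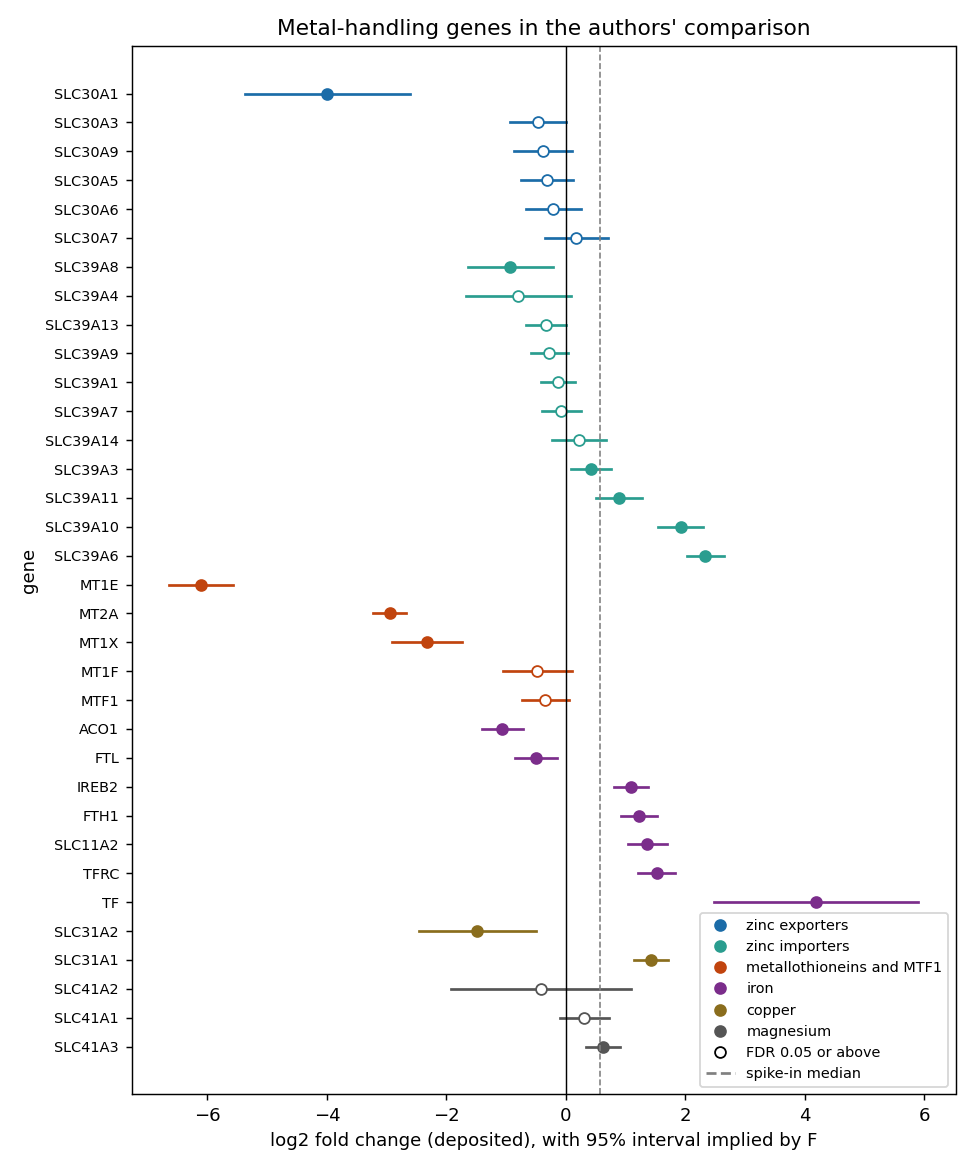
Deposited log2 fold change of the 34 genes, grouped by role, on the horizontal axis, with 95% intervals implied by F. Filled points have an edgeR FDR under 0.05, the solid line is 0 and the dashed line is the spike-in median at 0.57. MT1E, SLC30A1 and MT2A lie farthest to the left and TF and SLC39A6 farthest to the right. SLC39A3, SLC39A14, SLC30A7 and SLC41A1 lie between the lines and change sign when centred on the spike-ins.

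The metallothioneins were the group with the lowest median log2 fold change, -2.64. All 4 had a negative sign and 3 of 4 passed the test, beside 26.4% of all genes that passed as lower. Their summed implied level was 2174 CPM on the minus side and 247 CPM on the plus side. MT2A, the most abundant of them, had an implied level of 1748 CPM on the minus side and 226 CPM on the plus side. It was 7.72-fold lower by the authors' deposited table (log2 -2.95, SE 0.13, edgeR FDR 2.96e-10). Its level on the plus side was still far above that of any other metallothionein.

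MT1E had the lowest fold change of the 34 genes, going from an implied 379 CPM on the minus side to 5.51 CPM on the plus side. In the authors' deposited table it was 68.7-fold lower (log2 -6.10, SE 0.25, edgeR FDR 2.10e-10), and its share of the summed metallothionein level was 17.4% on the minus side and 2.23% on the plus side. MT1X was 5.03-fold lower by the authors' deposited table (log2 -2.33, SE 0.27, edgeR FDR 6.56e-06), with implied levels of 35.8 and 7.12 CPM on the minus and plus sides. MT1F, the least abundant by average level, did not pass: the authors' deposited table lists log2 -0.48 (edgeR FDR 0.155, 95% interval -1.05 to 0.10). On the plus side its implied level of 7.93 CPM was above those of MT1X and MT1E. MT2A therefore made up 80.4% of the summed level on the minus side and 91.7% on the plus side. MT1 genes are close copies of each other and the authors' counting is not described in the sources used here, so how reads were divided between MT1E, MT1F and MT1X is uncertain. Fibroblast and epithelial markers lay mostly on the same side as the metallothioneins, and their part in this result was not tested.

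MTF1, which drives these genes when zinc is high, did not pass: the authors' deposited table lists log2 -0.34 (edgeR FDR 0.13, 95% interval -0.73 to 0.05). Centred on the spike-ins it was lower by 0.91 on the log2 scale (FDR 0.000519 from the recomputed F, which leaves out the error of the spike-in median). Its implied level was 28.0 CPM on the minus side and 22.1 CPM on the plus side, a narrow gap beside those of MT1E and MT2A.

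MTF1 reads metal response elements, and the promoters of 3 lower genes, MT2A, MT1X and SLC30A1, are shown here as examples. Matches were not confined to lower genes, and whether MTF1 has a part in any of the values was not tested. RefSeq sequences (GRCh38.p14) were matched for 28 of the 34 genes, with 42 promoters in all, and FTH1, MT1E, MT1F, SLC31A2, SLC39A14 and SLC39A4 were not searched. The core of the metal response element was searched as TGCACNC and TGCGCNC on both strands in windows of 300 bases, and 29.6% of 35116 human promoters held at least 1 match and 2.3% at least 3. MT2A held 8, MT1X 4, SLC30A1 2 and TFRC, which was higher, 3. Promoters of SLC39A6 and IREB2, which were higher, and of SLC30A3, which did not pass, also held matches. In all, 15 of the 42 promoters held at least 1 and 3 held at least 3. No match overlapped another searched motif. Below are the 250 bases before each start, 5′ to 3′, with matches in capitals: MT2A at chr16:56608334-56608583 on the plus strand, MT1X at chr16:56682220-56682469 on the plus strand, and SLC30A1 at chr1:211579162-211579411 on the minus strand.
MT2A: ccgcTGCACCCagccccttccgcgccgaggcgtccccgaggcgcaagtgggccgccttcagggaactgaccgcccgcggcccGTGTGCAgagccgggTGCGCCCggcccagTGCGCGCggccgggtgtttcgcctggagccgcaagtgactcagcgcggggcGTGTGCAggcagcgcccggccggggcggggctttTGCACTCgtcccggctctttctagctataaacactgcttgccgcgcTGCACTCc
MT1X: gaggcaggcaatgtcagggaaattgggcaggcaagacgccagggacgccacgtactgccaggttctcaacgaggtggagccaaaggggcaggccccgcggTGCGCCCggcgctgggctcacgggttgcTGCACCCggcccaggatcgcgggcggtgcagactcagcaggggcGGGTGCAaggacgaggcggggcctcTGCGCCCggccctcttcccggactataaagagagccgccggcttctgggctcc
SLC30A1: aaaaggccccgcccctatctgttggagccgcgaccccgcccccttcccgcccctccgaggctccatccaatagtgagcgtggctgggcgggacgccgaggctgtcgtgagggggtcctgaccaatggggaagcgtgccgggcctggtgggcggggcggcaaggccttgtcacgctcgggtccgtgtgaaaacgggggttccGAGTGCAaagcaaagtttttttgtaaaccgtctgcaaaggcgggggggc
These stretches hold 7 matches for MT2A, 4 for MT1X and 1 for SLC30A1, of which the nearest to the start begins 8, 53 and 49 bases before it. The E-boxes CACGTG and CATGTG, letters that MITF can bind, were in 3 and 2 of the 42 promoters, against 7.26% and 11.1% of all promoters. The CACGTG matches were in 1 promoter each of SLC39A11, SLC39A8 and SLC41A2, and the CATGTG matches in 2 promoters of SLC39A10, whose windows overlap. The TCF/LEF core, CTTTGAA or CTTTGAT on either strand, was in 0 of 42 and in 6.86% of all, which says only that these letters are not in these windows.

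All 4 measured metallothioneins lie within 75.6 kb of chromosome 16 (56608584 to 56684196, hg38, GENCODE 44). Of the measured genes before the cluster, the nearest 3, NUDT21, OGFOD1 and BBS2, did not pass an edgeR FDR of 0.05, with log2 fold changes between -0.18 and 0.11 in the authors' deposited table. After the cluster, NUP93 (1.88-fold, edgeR FDR 2.15e-05) and HERPUD1 (2.10-fold, edgeR FDR 0.00106) were higher in the authors' deposited table. Farther along, NLRC5 was 3.85-fold lower (edgeR FDR 0.000122) and CPNE2 2.86-fold lower (edgeR FDR 5.29e-05) in the authors' deposited table, and CETP was lower with no reads in 1 group. The lower values thus did not extend to the measured genes directly on either side of the cluster.

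**Figure D2:**
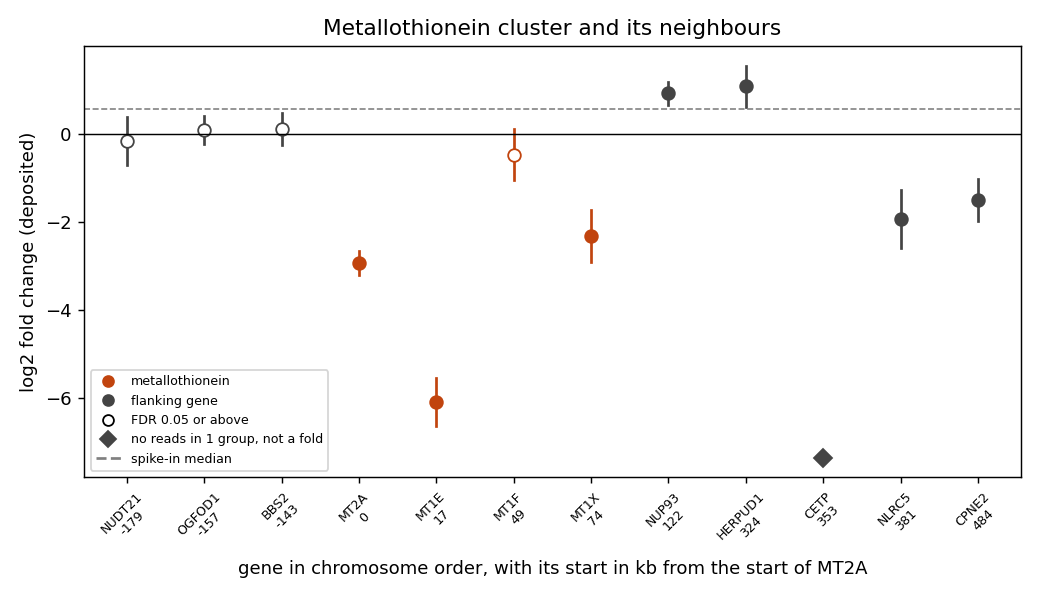
Deposited log2 fold change of the 4 metallothioneins with the nearest 3 measured genes before them and 5 after, in chromosome order, with the start of each gene in kb from the start of MT2A; bars are 95% intervals implied by F. The genes before the cluster lie near 0, MT2A, MT1E and MT1X far below it, and NUP93 and HERPUD1 above it. The diamond is CETP, which had no reads in 1 group, so its height is not a measured fold.

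Of the 6 zinc exporters only SLC30A1 passed the test (16.7%, beside 50.9% of all genes). SLC30A1, which sends zinc out across the plasma membrane and is a known MTF1 target, was 15.9-fold lower by the authors' deposited table (log2 -3.99, SE 0.64, edgeR FDR 0.000133). Its average was only 2.91 CPM, with implied levels of 5.48 CPM on the minus side and 0.344 CPM on the plus side, so the fold rests on a very low level on the plus side and its interval was wide (-5.37 to -2.61). It had the same sign as the metallothioneins.

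The other 5 measured exporters did not pass an edgeR FDR of 0.05, with log2 fold changes from -0.47 to 0.18 in the authors' deposited table. SLC30A5 and SLC30A6, which work as a heterodimer, and SLC30A7 load zinc into the early secretory pathway, where zinc enzymes are assembled; their 95% intervals ran from -0.75 to 0.12, from -0.67 to 0.26 and from -0.35 to 0.70. SLC30A9, a mitochondrial zinc exporter, had an interval from -0.87 to 0.11. SLC30A3, known for filling synaptic vesicles in neurons, came nearest to the threshold: the authors' deposited table lists log2 -0.47 (edgeR FDR 0.0868). These 5 had average levels between 22.4 and 34.1 CPM, close to the 22.3 CPM median of all genes. Centred on the spike-ins, SLC30A3, SLC30A5, SLC30A6 and SLC30A9 passed as lower along with SLC30A1, and SLC30A7 did not pass (FDR 0.176). Of all genes, 52.3% were lower at that setting.

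Of the 11 zinc importers 4 were higher, 1 was lower and 6 did not pass (45.5% called, near the 50.9% of all genes). Centred on the spike-ins, 2 were higher and 6 lower, beside 11.3% and 52.3% of all genes. SLC39A6, a plasma membrane importer of the LIV-1 subfamily, had implied levels of 68.6 CPM on the minus side and 347 CPM on the plus side. It was 5.05-fold higher by the authors' deposited table (log2 2.34, SE 0.14, edgeR FDR 8.27e-09). SLC39A10, which is known to form a heteromer with SLC39A6, went from an implied 12.2 to 46.1 CPM. In the authors' deposited table it was 3.79-fold higher (log2 1.92, SE 0.18, edgeR FDR 5.47e-07), so both partners were higher, and the ratio of SLC39A6 to SLC39A10 was 5.64 on the minus side and 7.53 on the plus side. The 2 genes lie on different chromosomes, SLC39A6 on 18 and SLC39A10 on 2.

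SLC39A11, of a separate ZIP subfamily, was 1.86-fold higher (edgeR FDR 0.000763) and SLC39A3, a plasma membrane importer, 1.34-fold higher (edgeR FDR 0.035) in the authors' deposited table. Neither passed when centred on the spike-ins, where SLC39A11 had a log2 value of 0.32 and SLC39A3 turned to -0.15. SLC39A8, which also carries manganese and cadmium, was 1.90-fold lower by the authors' deposited table (edgeR FDR 0.0312), at an average of 4.81 CPM.

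SLC39A1, the most abundant importer at 221 CPM, did not pass: the authors' deposited table lists log2 -0.13 (edgeR FDR 0.449, 95% interval -0.41 to 0.16). SLC39A7, which releases zinc from the endoplasmic reticulum, had an interval from -0.40 to 0.25. For the Golgi and vesicle carriers SLC39A9 and SLC39A13 the intervals were -0.59 to 0.04 and -0.67 to 0.00. SLC39A14, which also takes up iron that is not bound to transferrin, had an interval from -0.24 to 0.66, and SLC39A4, the importer of dietary zinc in the gut, one from -1.67 to 0.08 at an average of 3.60 CPM. Centred on the spike-ins, SLC39A1, SLC39A4, SLC39A7, SLC39A9 and SLC39A13 passed as lower, with FDRs from 0.000172 to 0.00941, and SLC39A14 did not pass. For the more abundant importers the intervals before centring exclude a change as large as that of SLC39A6. The order of importers by level changed with it: SLC39A1 led on the minus side (231 CPM) and SLC39A6 on the plus side (347 CPM).

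**Figure D3:**
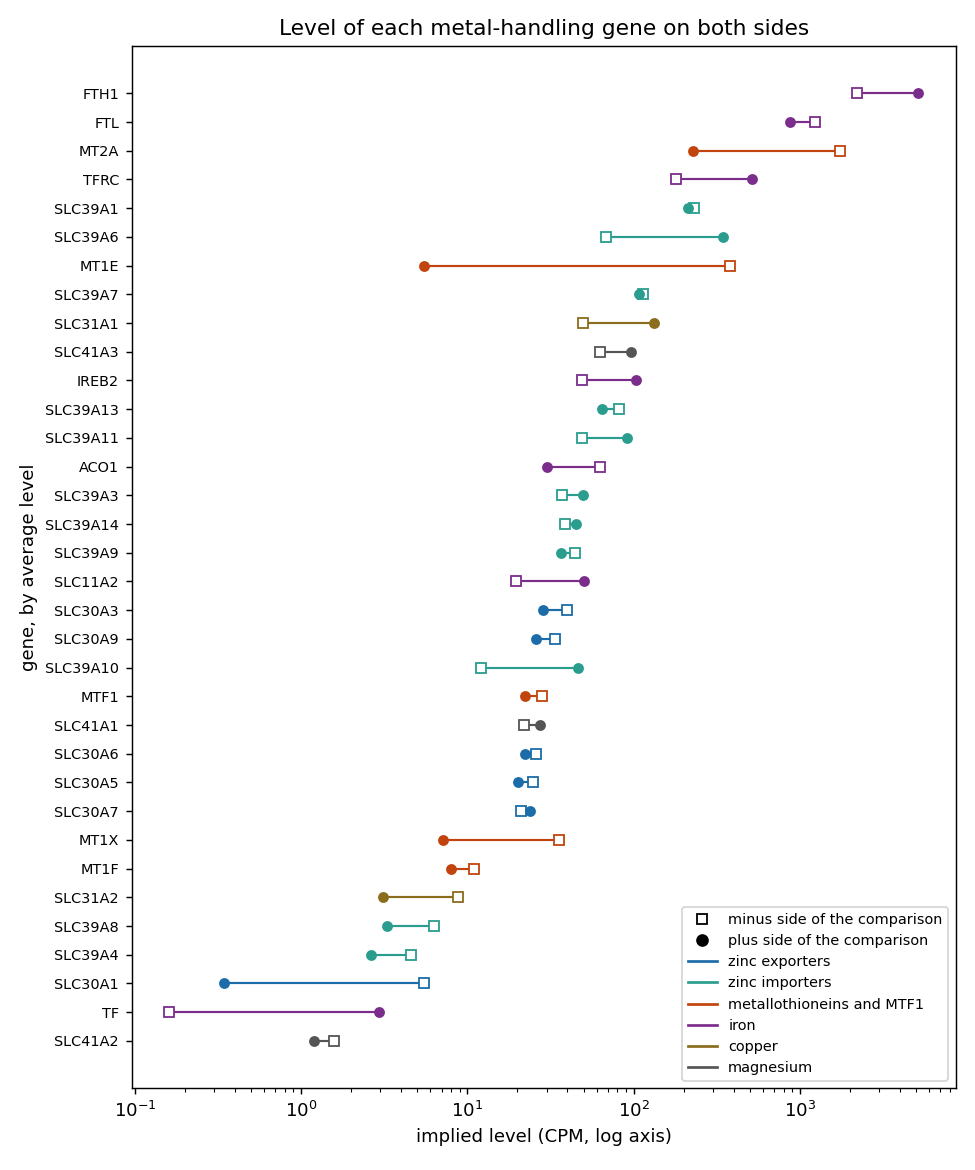
Implied level of each of the 34 genes in CPM on a log axis, ordered by average level; open squares are the minus side and filled circles the plus side of the comparison. FTH1 is the most abundant at an average of 3669 CPM and SLC41A2 the least at 1.39 CPM, and the longest lines belong to MT1E, which reaches 379 CPM, and to TF and SLC30A1, which reach 2.94 and 5.48 CPM.

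All 7 measured iron genes passed the test, 5 higher and 2 lower (beside 24.5% and 26.4% of all genes). Their median log2 fold change was 1.23, or 0.66 centred on the spike-ins. After centring the same 5 and 2 passed, beside 11.3% higher and 52.3% lower among all genes. TFRC, the transferrin receptor, had implied levels of 180 CPM on the minus side and 516 CPM on the plus side. It was 2.87-fold higher by the authors' deposited table (log2 1.52, SE 0.15, edgeR FDR 9.12e-07). SLC11A2, the carrier that lets iron out of the endosome, was 2.58-fold higher by the authors' deposited table (log2 1.37, SE 0.15, edgeR FDR 3.72e-06), from an implied 19.5 to 50.3 CPM. Receptor and endosomal carrier, which act in sequence, were both higher, but 2 other genes of this route, chosen after their values were seen, were lower. STEAP3, the reductase that prepares iron for SLC11A2 in the endosome, was 2.44-fold lower (edgeR FDR 0.000266) and TFR2, a second transferrin receptor, 8.30-fold lower (edgeR FDR 0.00545, average 1.78 CPM) by the authors' deposited table.

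TF, the serum iron carrier transferrin, was 18.2-fold higher by the authors' deposited table (log2 4.19, SE 0.80, edgeR FDR 0.000534). Its average was 1.55 CPM and its implied level on the minus side 0.161 CPM, so the fold rests on a very low level there and its interval ran from 2.48 to 5.90. It was the least abundant of the iron genes, and only 2.33% of all genes had a lower average level.

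The ferritin chains went in opposite directions. FTH1, the heavy chain that oxidises iron for storage, went from an implied 2198 to 5139 CPM and was 2.34-fold higher by the authors' deposited table (log2 1.23, SE 0.14, edgeR FDR 6.24e-06). FTL, the light chain that helps form the iron core, had implied levels of 1235 and 877 CPM and was 1.41-fold lower by the authors' deposited table (log2 -0.49, SE 0.16, edgeR FDR 0.0215). The ratio of FTH1 to FTL was therefore 1.78 on the minus side and 5.86 on the plus side. With only the 4 denominator degrees of freedom that 6 libraries in 2 groups leave, FTL no longer passed (FDR 0.0904). Both genes have many processed pseudogenes in the human genome, so their counts depend on how reads with several matches were handled, which is not given in the sources used here.

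The iron regulatory proteins also parted. IREB2, which is degraded when iron is high, was 2.12-fold higher by the authors' deposited table (log2 1.09, SE 0.13, edgeR FDR 1.00e-05). ACO1, which serves as cytosolic aconitase when it holds an iron-sulfur cluster and binds RNA without it, was 2.09-fold lower by the authors' deposited table (log2 -1.06, SE 0.16, edgeR FDR 6.43e-05). By implied level ACO1 was the more abundant on the minus side (62.9 against 48.9 CPM) and IREB2 on the plus side (104 against 30.1 CPM). Their protein levels and RNA binding were not measured.

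Letters that resemble the elements these proteins bind were looked for in the canonical transcripts of GENCODE 44. The pattern was a C, 5 bases of any kind, the loop CAGTGN and 5 further bases, with all 5 base pairs of the stem formed (G with U allowed). A match was found in 1.31% of 19701 protein-coding transcripts and in 5 of the 34 genes: once in the 5' untranslated region of FTH1 and FTL, once in the 3' untranslated region of SLC39A9 and TF, and 4 times in the 3' untranslated region of TFRC, the only transcript of the 19701 with 3 or more. An element in the 5' untranslated region blocks translation when a regulatory protein is bound, whereas those of TFRC shield the mRNA from decay. The 4 TFRC sites lie between 196050463 and 196051007 on the minus strand of chromosome 3 and the FTL site at chr19:48965335-48965363 on the plus strand (hg38). Each is shown 5′ to 3′ over 29 bases with the 6 bases of the loop in capitals.
TFRC site 1: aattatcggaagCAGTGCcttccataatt
TFRC site 2: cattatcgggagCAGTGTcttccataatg
TFRC site 3: ctgtatcggagaCAGTGAtctccatatgt
TFRC site 4: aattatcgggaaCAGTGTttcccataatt
FTL site: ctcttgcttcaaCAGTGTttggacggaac
The transcript used for SLC11A2 held no match to this pattern, which says nothing of its other isoforms. The TF match lies at position 16204 of the transcript used, and whether other TF transcripts hold it was not examined. A match is a resemblance and not evidence of binding, and the transcripts that hold one moved both ways: TFRC, FTH1 and TF were higher, FTL was lower and SLC39A9 did not pass.

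The 2 copper carriers both passed the test (beside 50.9% of all genes), in opposite directions. SLC31A1, the high-affinity copper importer of the plasma membrane, had implied levels of 49.3 CPM on the minus side and 133 CPM on the plus side. It was 2.70-fold higher by the authors' deposited table (log2 1.43, SE 0.13, edgeR FDR 5.88e-07). SLC31A2, a related protein of endosomes and lysosomes, was 2.80-fold lower by the authors' deposited table (log2 -1.48, SE 0.46, edgeR FDR 0.0143), at an average of 5.94 CPM. The 2 genes are close together on chromosome 9 (SLC31A2 at 113150976 to 113164140 and SLC31A1 at 113221544 to 113264492, both on the plus strand). With 4 denominator degrees of freedom SLC31A2 did not pass (FDR 0.0772).

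Of the 3 magnesium carriers 1 passed the test (33.3%, beside 50.9% of all genes). SLC41A3, a mitochondrial magnesium carrier, was 1.53-fold higher by the authors' deposited table (log2 0.62, SE 0.13, edgeR FDR 0.00145), but centred on the spike-ins its log2 value was 0.05 and it did not pass (FDR 0.776). SLC41A1, which exports magnesium in exchange for sodium, had a 95% interval from -0.10 to 0.72. SLC41A2 was the lowest of the 34 genes at 1.39 CPM, and its interval from -1.92 to 1.09 covers changes of more than 2-fold in either direction.

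**Figure D4:**
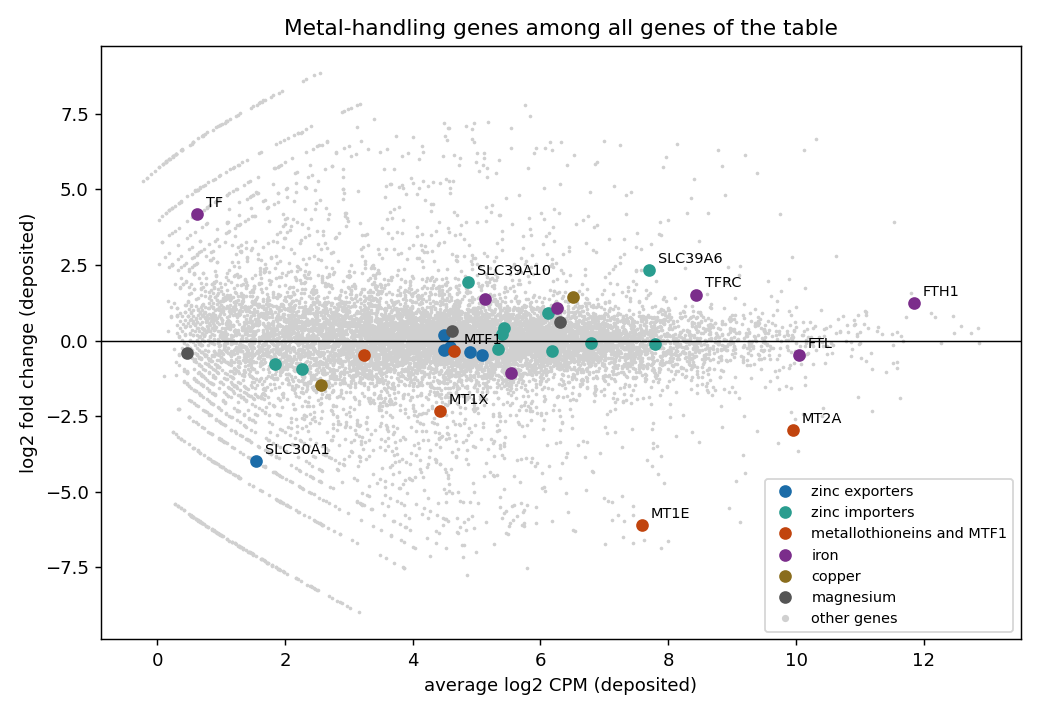
Average log2 CPM (horizontal axis) against deposited log2 fold change (vertical axis) for all 12558 genes in grey and the 34 metal genes in colour by role. MT2A, MT1E and FTH1 stand out at high average levels, whereas TF and SLC30A1 lie at the left edge, among the genes of low average level.

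Other genes of iron handling showed a mixed picture. Of 32 genes on that list 22 were measured, 4 higher and 8 lower by an edgeR FDR of 0.05 (54.5% called, beside 50.9% of all genes), with a median log2 fold change of -0.21. MFI2, the gene of melanotransferrin, an iron-binding surface protein first found on melanoma cells, was 5.45-fold higher by the authors' deposited table (edgeR FDR 1.64e-08, average 144 CPM). SCARA5, a ferritin receptor, was 136-fold higher by the authors' deposited table (edgeR FDR 2.22e-07), but its implied level on the minus side was 0.0775 CPM. The haem carrier SLC48A1 was 3.37-fold lower, FLVCR1, first described as a haem exporter, 2.77-fold higher and NCOA4, the receptor that delivers ferritin to the lysosome, 1.70-fold lower by the authors' deposited table, each with an edgeR FDR of 0.000217 or smaller. HMOX1, which breaks down haem, did not pass: its 95% interval ran from -0.32 to 0.31 (edgeR FDR 0.997 in the authors' deposited table). HMOX1 was chosen after its value was seen.

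Among 22 other copper genes 21 were measured, 4 higher and 8 lower (57.1% called, near the 50.9% of all genes), with a median log2 fold change of 0.01. ATOX1, the chaperone that takes copper from SLC31A1 towards the Golgi pumps, was 4.49-fold higher by the authors' deposited table (log2 2.17, SE 0.14, edgeR FDR 1.68e-08, implied 201 to 903 CPM). The copper-dependent collagen cross-linkers LOXL2 (54.8-fold) and LOXL3 (14.1-fold), the copper-binding prion protein gene PRNP (4.52-fold) and MOXD1 (45.4-fold) were lower in the authors' deposited table, each with an edgeR FDR of 9.13e-06 or smaller. ATOX1 was thus higher, as was SLC31A1, whereas LOXL2, LOXL3 and SLC31A2 were lower. ATOX1, LOXL2 and LOXL3 are named for their small p-values, and 9 of the 21 genes did not pass. Fibroblast markers were mostly lower as well, and their part in the LOXL2, LOXL3 and MOXD1 values was not tested.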

How the data were processed

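By the labels, the series holds 6 IGR37 libraries (500 ng input, 3' end kit per the protocols). That the deposited comparison is of these libraries is taken from the series and is not shown by its header. The submitters' processing notes name STAR, edgeR and the build hg38. For versions, counting tool, strand setting, annotation and the filter on low counts, nothing is stated in the labels. The authors deposited, per the file headers, log2 fold changes with the same fold as a ratio, average log2 CPM, the F score of each test, its p-value and the FDR. The table had 12617 rows, 59 of them spike-ins. The deposited FDR equalled Benjamini-Hochberg values over all rows, so it was used as it stands; a gene is called at an FDR under 0.05. The file holds no counts, so the fit planned for counts was not made.

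From these columns the SE was computed as the size of the log2 fold change divided by the square root of F. Denominator degrees of freedom were solved from F and p (median 14.03). Rows with 2 fewer (206, none of the 34 genes) were read as genes without any read in 1 group and given no fold. Spike-in centring subtracted the spike-in median, recomputed F and p with the same SE, and adjusted over all 12558 genes. The error of that median, which all genes share, is not in the centred FDRs, so they are too small to an unknown degree. Python 3.11.15, numpy 2.4.6, pandas 2.3.3, scipy 1.17.1 and matplotlib 3.10.9 were used, and the steps were tested on simulated data. All 34 genes were matched by symbol to GENCODE 44. Depth is unknown. The genes and lists were chosen with earlier results of these data known; of each wider list, called genes with the 5 smallest p-values are named. Some genes flanking the metallothionein cluster are not reported here.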

Additional observations from a re-analysis of the deposited data

How the results depend on the processing

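No paired analysis was possible because the table holds no values per library; for the same reason leaving out a library and other size factors were not run. Directions cannot change under a stricter FDR, 4 denominator degrees of freedom, a 2-fold minimum, a minimum average log2 CPM of 1 or adjustment without the spike-ins, and the last 2 changed no call among those of the 34 genes they retained. With an FDR under 0.01 and with 4 denominator degrees of freedom alike, 10 of the 34 genes were higher and 5 lower, in place of 11 and 8: the lower calls fell to 0 among zinc importers, 1 among iron genes and 0 among copper carriers. The wider lists then had 3 (0.01) or 2 (4 degrees of freedom) called magnesium genes in place of 5, and with 4 degrees of freedom 6 iron handling genes in place of 12 and 7 iron-sulfur and haem genes in place of 14. A 2-fold minimum left 2 higher and 0 lower zinc importers, 1 lower iron gene and 0 magnesium carriers. Of the wider lists it left 6 iron handling, 2 iron-sulfur and haem and 2 magnesium genes. The share of all genes that passed at these stricter settings was not computed. Centring on the spike-ins changed most. Lower calls became 19 in all, 5 zinc exporters, 6 zinc importers and 5 metallothioneins with MTF1. Higher calls became 2 zinc importers and 0 magnesium carriers, and 24 iron-sulfur and haem genes were called. Among all genes, 52.3% were lower and 11.3% higher at this setting. The centred medians were -0.81 for all 34 genes, -0.92 for zinc exporters, -0.65 for zinc importers, -2.90 for metallothioneins with MTF1, 0.66 for iron, -0.60 for copper and -0.26 for magnesium. Signs turned for SLC39A3 (-0.15), SLC41A1 (-0.26), SLC39A14 (-0.36) and SLC30A7 (-0.39). Whether the spike-ins or the bulk of genes give the better zero was not tested. Depth per library is unknown and limits the genes under a few CPM most.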

Other observations

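Genes of iron-sulfur cluster and haem assembly passed in both directions: of 42 listed, 37 were measured, 5 higher and 9 lower by the authors' edgeR FDR (37.8%, beside 50.9% of all genes), with a median log2 fold change of -0.01. Their changes were small, from -1.26 to 0.89. CISD1, an iron-sulfur protein of the outer mitochondrial membrane, was 2.07-fold lower (edgeR FDR 8.30e-06), and the assembly proteins ISCA2 (1.82-fold), HSCB (2.40-fold) and GLRX3 (1.69-fold) were lower in the authors' deposited table, each with an edgeR FDR of 0.00181 or smaller. CIAO1, of the cytosolic assembly machinery, was 1.85-fold higher by the authors' deposited table (edgeR FDR 0.000161).

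Of 16 other magnesium genes 11 were measured, 3 higher and 2 lower (45.5% called, near the 50.9% of all genes). The channel kinase TRPM7 was 1.99-fold, the mitochondrial channel MRS2 1.81-fold and NIPA2 1.34-fold higher, and NIPAL3 was 2.25-fold and CNNM2 2.41-fold lower in the authors' deposited table, each with an edgeR FDR of 0.017 or smaller. Of 18 other zinc and manganese genes 7 were measured, 2 higher and 1 lower (42.9% called, beside 50.9% of all genes). By the authors' deposited table, ATP2C1, a Golgi pump for calcium and manganese, was 1.65-fold higher (edgeR FDR 0.000574), as was ATP13A1 at 2.31-fold (edgeR FDR 0.0016). GPR39, a receptor that senses extracellular zinc, was lower and had no reads in 1 of the groups (3.34 CPM on average).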
